A study of Mus musculus with 24 samples.

Results

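The genes described here are 10 genes of natural killer (NK) cells and other cytotoxic lymphocytes, Gzma, Gzmb, Prf1, Ctsw, Nkg7, Klrd1, Klrk1, Ncr1, Il2rb and Ccl5. They were taken as the probe sets of the array (its units of measurement, each made of several short probes) that the annotation assigns to 1 of these genes alone, which gave 12 probe sets of the 22644 on the array. Their RNA was followed in lungs of male mice aged 6 to 8 weeks, 1 mouse to an array, in 8 groups of 3. Tnfr+/+ mice were wild-type C57BL/6J, and Tnfr-/- mice were of the strain B6.129S-Tnfrsf1a tm1Imx Tnfrsf1b tm1Imx/J, which lacks both receptors for tumor necrosis factor (TNFR1 and TNFR2) in all cells from the germline on. Each genotype breathed filtered air, or 0.3 ppm ozone (O3) for 24, 48 or 72 h. The same 3 air arrays of a genotype served all of its comparisons with O3. How long the air mice were kept in the chamber is not in the labels used, so time in the chamber and O3 cannot be told apart. The comparisons addressed how the lung transcriptome answered O3 and what the loss of TNF signaling did to it.

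NK cells and cytotoxic T cells kill target cells by releasing granules. In these, perforin opens the target membrane and granzymes, which are serine proteases, enter the target and start its death. Receptors of the killer cell lectin-like and natural cytotoxicity families decide whether a cell is attacked, and interleukin (IL)-2 and IL-15 keep the killer cells alive through a shared receptor chain. The lung holds many NK cells in its vasculature, and in whole lung RNA fewer such cells and less RNA per cell cannot be told apart.

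The 12 probe sets all passed the filter on low signals (a signal not under an array's 20th percentile on at least 1 array), as did 20537 of all probe sets. Of the 12, 9 reached that percentile on all 24 arrays, 1 (Il2rb 1417546_at) on 22 arrays and 2 (Ctsw 1422632_at and Il2rb 1448759_at) on 10 arrays, so the values of these last are the least certain. Signals are given below as quantile-normalized MAS5 signals on a linear scale, in the order of the replicate numbers, and differences as log2 fold changes from limma with adjusted p over the 20537 probe sets. The threshold for a call was an adjusted p under 0.05. Before normalization the arrays had median signals of 213 to 247 and correlated in pairs with r of 0.898 to 0.963. The array of Tnfr+/+ O3 72 h replicate 1 was the least like the others (mean r 0.909, against 0.933 to 0.947 for the rest), and leaving it out of the fit moved no count of member calls by more than 1.5 times. Thymus markers (6 of 8 listed genes measured) had a mean log2 signal of 8.15 on the array of Tnfr+/+ O3 48 h replicate 2 and of at most 7.17 on the others. Without that array the genotype calls of Gzma (-1.20, adjusted p = 0.0066), Gzmb (-0.71, adjusted p = 0.019) and Ccl5 (-0.73, adjusted p = 0.0020) described below held, and those of Nkg7 (adjusted p = 0.050) and Klrd1 (adjusted p = 0.061) did not. Surfactant, airway and vascular markers of the lung had a mean log2 signal of 12.9 to 13.2 on every array over 16 of 17 listed genes, and leukocyte markers were also measured. Of the 2 disrupted genes, Tnfrsf1b (1418099_at) lay at 151 to 266 in the Tnfr-/- and 356 to 525 in the Tnfr+/+ mice. Its other probe set and that of Tnfrsf1a overlapped between the genotypes, and since it is not known here where the probes lie relative to the disrupted parts, they do not check the labels.

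In the Tnfr-/- lungs 5 of the 10 genes were lower than in the Tnfr+/+ lungs over the mean of the 4 exposures, namely the granzymes Gzma and Gzmb, the granule membrane protein gene Nkg7, the receptor gene Klrd1 and the chemokine gene Ccl5. Gzma had the largest difference of the 12 member probe sets and was 2.28-fold lower. Over all probe sets 5.65% were called in this comparison and 2.47% were called lower, against 5 of the 12 member probe sets, all lower. All 12 member probe sets had a negative log2 fold change, as had 51.8% of all probe sets. The members' median was -0.41, and that of all probe sets was -0.01. The members were chosen with earlier results of these data known, so these counts describe them and are not a test.

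**Figure D1:**
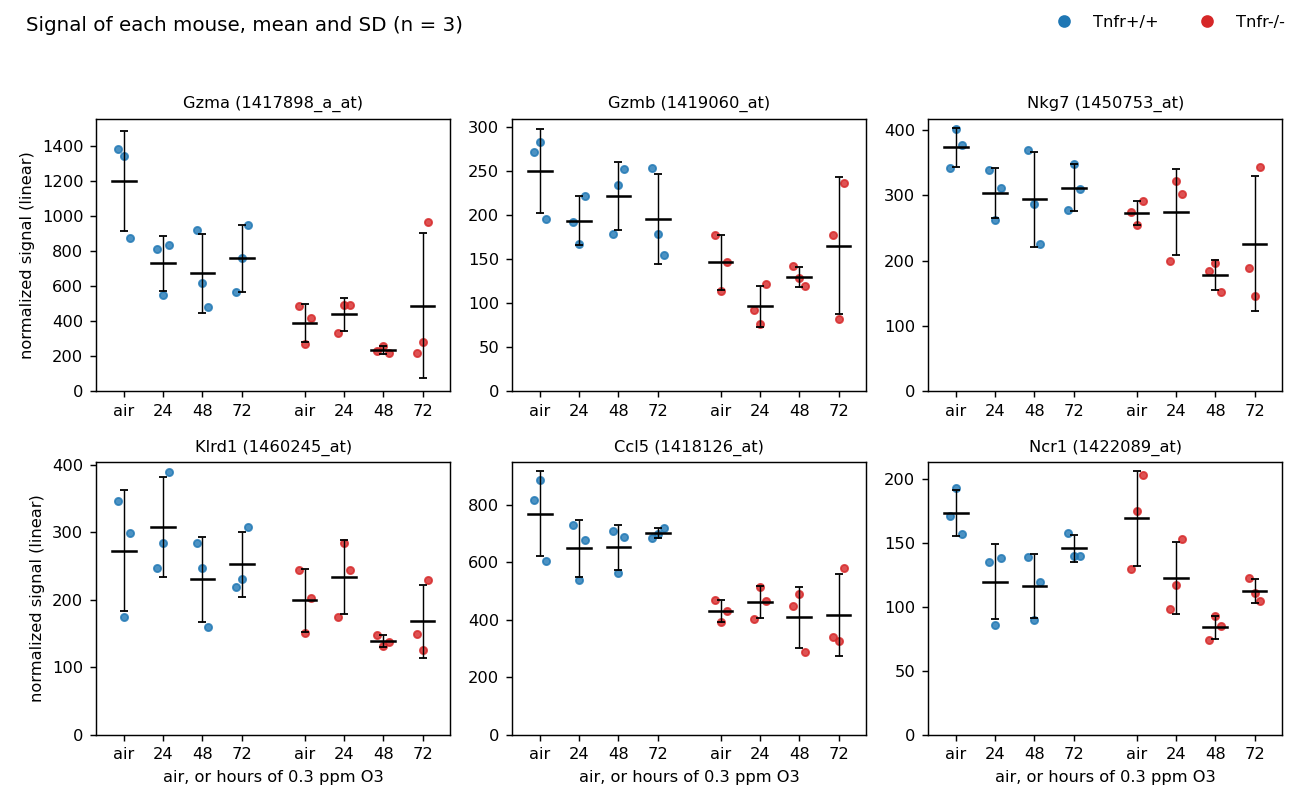
Quantile-normalized signal (linear axis from 0) of 6 member probe sets in each of the 24 mice, by air or hours of 0.3 ppm O3, with Tnfr+/+ mice in blue and Tnfr-/- mice in red. Points are mice, long bars are means and error bars are SD (n = 3). In the panels of Gzma and Ccl5 the Tnfr-/- points lie lower in every exposure apart from 1 high mouse at 72 h in the Gzma panel.

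The promoters of 6 of the 10 genes were in the RefSeq table used (build GRCm38.p6), and those of 3 genes that were lower in Tnfr-/- lungs are shown for what the proximal promoters of genes that share this genotype call hold. Each run is the 250 bases before the start of transcription, read 5′ to 3′ on the strand of the gene. Gzma lies on the minus strand at chr13:113100982-113101231, Gzmb on the minus strand at chr14:56262335-56262584 and Nkg7 on the plus strand at chr7:43436888-43437137. Capitals mark matches, on either strand, to the cores of factors that are known from cytotoxic lymphocytes or from TNF signaling.
Gzma: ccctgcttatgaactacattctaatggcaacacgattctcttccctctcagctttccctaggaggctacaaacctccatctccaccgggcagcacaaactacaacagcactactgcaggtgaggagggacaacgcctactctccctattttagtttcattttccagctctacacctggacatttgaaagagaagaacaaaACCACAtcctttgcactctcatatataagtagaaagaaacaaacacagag
Gzmb: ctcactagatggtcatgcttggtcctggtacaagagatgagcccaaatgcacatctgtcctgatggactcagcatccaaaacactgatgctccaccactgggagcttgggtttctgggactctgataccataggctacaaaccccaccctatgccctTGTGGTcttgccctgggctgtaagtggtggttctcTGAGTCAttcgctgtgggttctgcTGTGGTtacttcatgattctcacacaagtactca
Nkg7: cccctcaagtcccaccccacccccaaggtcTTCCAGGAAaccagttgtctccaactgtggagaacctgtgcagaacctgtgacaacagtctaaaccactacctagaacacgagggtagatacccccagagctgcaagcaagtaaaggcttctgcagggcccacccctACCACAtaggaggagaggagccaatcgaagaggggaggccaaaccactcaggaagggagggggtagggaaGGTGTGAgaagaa
The letters searched over the 300 bases from 250 before to 50 after the start were TGTGGT for RUNX factors, TCACACC for T-box factors, TTCNNNGAA for STAT factors, TGANTCA for AP-1, and the NF-kB consensus by name. The RUNX core was in the promoters of all 6 genes and in 16.8% of all 32851 promoters of that length. These are 7 promoters, as Ncr1 has 2, which overlap and hold the same matches. The T-box core was found in Nkg7 alone among the members (3.98% of all promoters). The STAT letters were in Nkg7 and Gzmb (8.30% of all), and in Gzmb they lie after the start and so outside the run shown. AP-1 letters were in Gzmb and Klrk1 (7.81% of all), and the NF-kB consensus was in no member promoter (5.81% of all). The matches shown do not overlap, and a match is a description of letters, not a site that was shown to be used.

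Gzma encodes granzyme A, a tryptase of the lytic granule. The Gzma signals of the Tnfr+/+ mice were 1383, 1344 and 873 in air, 809, 547 and 832 after 24 h of O3, 919, 617 and 479.6 after 48 h and 568, 759.9 and 948 after 72 h. In the Tnfr-/- mice they were 485, 271 and 416 in air, 332, 493 and 491 after 24 h of O3, 229, 261 and 217 after 48 h and 217, 281 and 965 after 72 h. In air and after 24 and 48 h of O3 every Tnfr-/- mouse was below every Tnfr+/+ mouse, and at 72 h Tnfr-/- replicate 3 lay above all 3 Tnfr+/+ mice while its other 2 mice lay below them. Over the 4 exposures Gzma was lower in Tnfr-/- lungs by a log2 fold change of -1.19 (standard error, SE, of 0.21, 95% interval -1.62 to -0.76, adjusted p = 0.0032 with limma). In single exposures the log2 fold change was -1.63 in air, -0.73 at 24 h, -1.47 at 48 h and -0.93 at 72 h, none of which passed the adjusted threshold.

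Gzmb encodes granzyme B, which cleaves caspases in the target cell. The Gzmb signals of the Tnfr+/+ mice were 272, 283 and 195 in air, 192, 167 and 222 after 24 h of O3, 178, 234 and 253 after 48 h and 253, 179 and 155 after 72 h. The Tnfr-/- mice had 177, 114 and 147 in air, 92.3, 75.8 and 122 after 24 h of O3, 142, 128 and 119.7 after 48 h and 177, 82.0 and 237 after 72 h. The genotypes did not overlap in air, at 24 h or at 48 h, and overlapped at 72 h, where Tnfr-/- replicate 3 was again the highest of its group. Gzmb was lower in Tnfr-/- lungs by a log2 fold change of -0.72 (SE 0.15, 95% interval -1.04 to -0.41, adjusted p = 0.010 with limma). The single difference that came nearest to a call was at 24 h, with a log2 fold change of -1.02 and an adjusted p of 0.12.

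Nkg7 encodes a membrane protein of cytotoxic granules that is needed for their release. The Nkg7 signals of the Tnfr+/+ mice were 342, 401 and 378 in air, 338, 263 and 311 after 24 h of O3, 370.2, 287 and 225 after 48 h and 278, 349 and 309.5 after 72 h. Those of the Tnfr-/- mice were 274, 255 and 292 in air, 200.0, 322 and 302 after 24 h of O3, 184, 197 and 152 after 48 h and 189, 146 and 344 after 72 h. The genotypes did not overlap in air or at 48 h, and overlapped at 24 and 72 h. Nkg7 was lower over the 4 exposures by a log2 fold change of -0.47 (SE 0.13, adjusted p = 0.035 with limma), a call that was lost without any 1 of 12 of the 24 arrays (adjusted p up to 0.063).

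The remaining granule genes gave no genotype call. Prf1, which encodes perforin, was read by 2 probe sets. Its signal at 1451862_a_at ranged from 142 to 253 (median 176) in the 12 Tnfr+/+ mice and from 112 to 175 (median 142) in the 12 Tnfr-/- mice. At 1450335_at it ranged from 95.1 to 176 (median 135) and from 83.5 to 149 (median 113). Both probe sets had negative log2 fold changes, -0.36 (adjusted p = 0.057) and -0.27 (adjusted p = 0.10), and the 24 h difference at 1450335_at was -0.73 (adjusted p = 0.079). Ctsw encodes cathepsin W, a cysteine protease of NK and cytotoxic T cells, and its genotype difference was -0.46 with an interval of -1.10 to 0.18 (adjusted p = 0.39).

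Klrd1 encodes CD94, the partner chain of the NKG2 receptors that read the non-classical class I molecule Qa-1. The Klrd1 signals of the Tnfr+/+ mice were 346, 174 and 299 in air, 247, 284 and 390.2 after 24 h of O3, 284, 247 and 160.3 after 48 h and 219, 231 and 308 after 72 h. Tnfr-/- mice showed 245, 151 and 203 in air, 174, 284 and 244 after 24 h of O3, 148, 132 and 137 after 48 h and 149.6, 125 and 229 after 72 h. The genotypes were apart at 48 h alone, where the 3 Tnfr-/- mice lay between 132 and 148 and the lowest Tnfr+/+ mouse at 160.3. Over the 4 exposures Klrd1 was lower by a log2 fold change of -0.53 (SE 0.15, adjusted p = 0.039 with limma), which was lost without any 1 of 16 of the 24 arrays (adjusted p up to 0.074).

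The activating receptors gave no genotype call. Klrk1, which encodes NKG2D, the receptor for stress ligands, ranged from 172 to 366 (median 238) in Tnfr+/+ and from 147 to 335 (median 204) in Tnfr-/- mice, with a log2 fold change of -0.25 (interval -0.52 to 0.01, adjusted p = 0.24). In air its 3 Tnfr-/- values of 170 to 233 lay below the 3 Tnfr+/+ values of 246 to 366. The same held at 48 h of O3, with 147 to 164 in Tnfr-/- and 206 to 319 in Tnfr+/+ mice. Ncr1, which encodes the NK receptor NKp46, had a genotype difference of -0.21 (interval -0.43 to 0.01, adjusted p = 0.25). Il2rb encodes the receptor chain shared by IL-2 and IL-15. Its probe sets had genotype differences of -0.05 (1417546_at, interval -0.54 to 0.45) and -0.32 (1448759_at, interval -1.17 to 0.52), and the width of these intervals leaves a change of either sign possible.

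Ccl5 encodes a chemokine that draws T cells, NK cells and monocytes and that activated cytotoxic lymphocytes make themselves. The Ccl5 signals of the Tnfr+/+ mice were 815, 887 and 603 in air, 731, 537 and 676 after 24 h of O3, 708, 563 and 687 after 48 h and 685, 699 and 720.0 after 72 h. In Tnfr-/- lungs the values were 469, 393 and 429 in air, 404, 514 and 466 after 24 h of O3, 446, 490.1 and 289 after 48 h and 339.6, 328 and 581 after 72 h. The genotypes did not overlap in any of the 4 exposures. Ccl5 had the lowest adjusted p of the members, with a log2 fold change of -0.70 (SE 0.11, 95% interval -0.94 to -0.47, adjusted p = 0.0014 with limma), that is 1.63-fold lower in Tnfr-/- lungs. Its differences in the single exposures were -0.82 in air, -0.48 at 24 h, -0.71 at 48 h and -0.80 at 72 h, each without a call (adjusted p from 0.20 to 0.33).

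**Figure D2:**
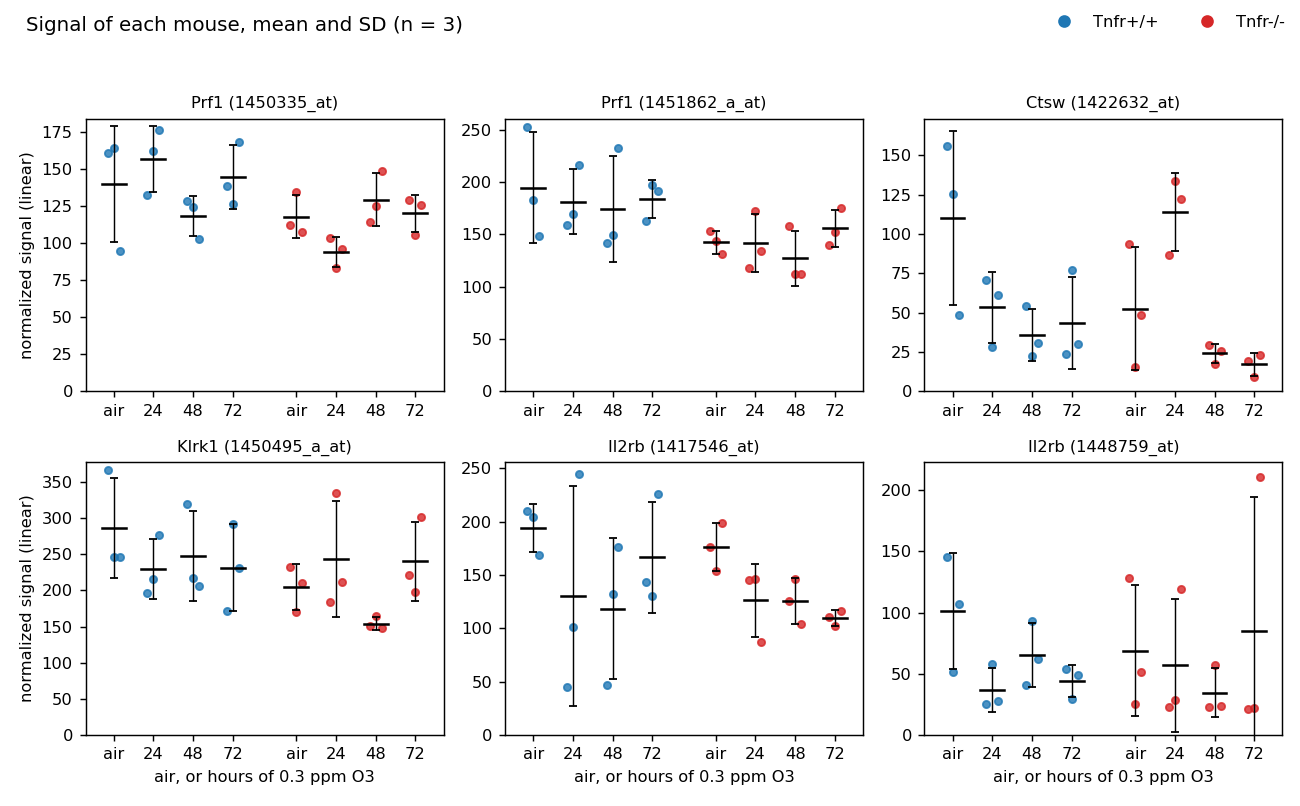
Quantile-normalized signal (linear axis from 0) of the other 6 member probe sets in each of the 24 mice, drawn as above with means and SD (n = 3). The genotypes overlap in most exposures, and Ctsw and Il2rb 1448759_at spread widely between mice of a group.

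Within single exposures no member was called between the genotypes. The share of all probe sets called was 0.0876% in air and, with 24, 48 and 72 h of O3, 1.00%, 0.166% and 0.161%. At an unadjusted p under 0.05 the members lower in Tnfr-/- mice numbered 3 of 12 in air (3.62% of all tested), 3 at 24 h (6.98%), 7 at 48 h (5.03%) and 4 at 72 h (5.25%), and none was higher. The groups did not overlap, with Tnfr-/- lower, for 5 of 12 in air (7.54% of all), 4 at 24 h (11.1%), 6 at 48 h (9.07%) and 4 at 72 h (6.85%). The reverse, Tnfr-/- higher with no overlap, was seen for Ctsw at 24 h (12.0% of all probe sets).

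Markers of hepatocytes moved with the groups and are given beside these results. Their mean log2 signal over 24 of 29 listed genes was 7.18 to 7.99 on the Tnfr+/+ air arrays and 6.48 to 7.21 on all other arrays, and Apoa1 and Cyp2e1 were called lower in Tnfr-/- lungs. Without the air arrays, the mean of the 3 O3 exposures gave -1.04 for Gzma (adjusted p = 0.041) and -0.67 for Ccl5 (adjusted p = 0.023), which were called. Gzmb (-0.71, adjusted p = 0.053), Klrd1 (-0.57, adjusted p = 0.064) and Nkg7 (-0.48, adjusted p = 0.12) were not.

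The strains also differ around the disrupted genes and in Nnt, a gene of mitochondrial redox balance that is known to be defective in C57BL/6J. Nnt (1416105_at) was higher in Tnfr-/- lungs, with a log2 fold change of 1.10 (adjusted p = 2.2e-08). Gzma lies 6.27 Mb from Nnt on chromosome 13, and Klrd1 and Klrk1 lie 4.24 and 4.26 Mb from Tnfrsf1a on chromosome 6. Of the genes within 10 Mb, 11.8% of 34 near Nnt, 6.67% of 150 near Tnfrsf1a and 15.0% of 153 near Tnfrsf1b were called. Of all 11597 genes 4.62% were called. The first 2 windows include the members named. For these 3 members the loss of the receptors and linked strain sequence cannot be told apart. Nnt is on another chromosome than Tnfrsf1a (6) and Tnfrsf1b (4), so the strains also differ away from the disrupted genes. Ccl5 (chromosome 11), Gzmb (chromosome 14) and Nkg7 (chromosome 7) lie on other chromosomes than Tnfrsf1a, Tnfrsf1b and Nnt. For these too, the loss of the receptors and other differences between the strains cannot be told apart in this design.

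**Figure D3:**
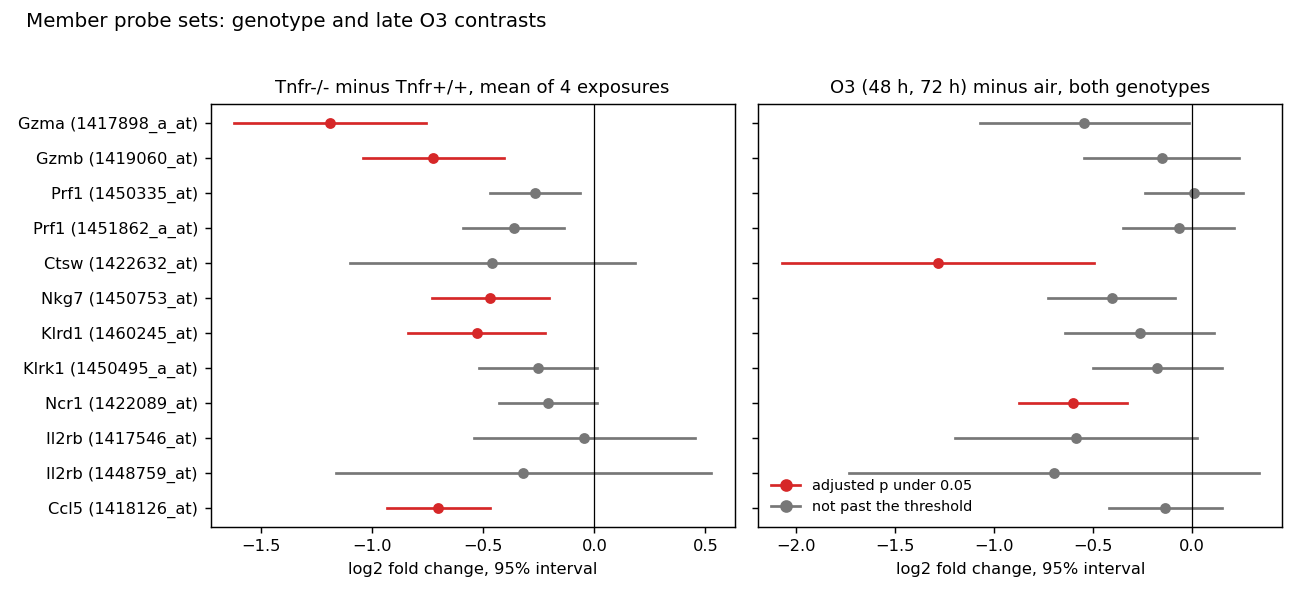
Log2 fold change with 95% interval of each of the 12 member probe sets for Tnfr-/- minus Tnfr+/+ over the mean of 4 exposures (left) and for O3 at 48 and 72 h minus air over both genotypes (right). Red marks an adjusted p under 0.05: 5 probe sets on the left, led by Gzma at -1.19, and 2 on the right, Ctsw at -1.28 and Ncr1 at -0.60.

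O3 was followed by lower Ncr1 and Ctsw. Over 48 and 72 h and both genotypes these 2 of 12 member probe sets were called, both lower, where 12.2% of all probe sets were called and 5.65% were called lower, so the share of members called was near that of all probe sets. Of the 12, 11 had a negative log2 fold change (54.5% of all probe sets), and their median was -0.34 against -0.03 for all.

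The Ncr1 signals of the Tnfr+/+ mice were 171, 192 and 157 in air, 135, 85.6 and 138 after 24 h of O3, 139, 90.0 and 119.6 after 48 h and 158, 139 and 139 after 72 h. The Tnfr-/- values were 129, 175 and 203 in air, 98.2, 117 and 153 after 24 h of O3, 74.0, 92.4 and 85.0 after 48 h and 122, 110.4 and 104 after 72 h. In each genotype the highest mean was in air and the lowest at 48 h. The O3 groups lay below air with no overlap at 24 and 48 h in Tnfr+/+ and at 48 and 72 h in Tnfr-/- lungs. Ncr1 was 1.52-fold lower at 48 and 72 h than in air, with a log2 fold change of -0.60 (SE 0.13, adjusted p = 0.0044 with limma). It was also the single member called in any one time comparison, at 48 h in Tnfr-/- lungs, where it was 1.99-fold lower (log2 fold change -0.99, standard error 0.21, adjusted p = 0.010) and where 3.83% of all probe sets were called. That call was lost without Tnfr-/- air replicate 3 (adjusted p = 0.069) or Tnfr-/- O3 48 h replicate 1 (adjusted p = 0.052). Its log2 fold changes in Tnfr+/+ lungs, with no call, were -0.57, -0.60 and -0.25 in the order of the times. The 48 h responses of the 2 genotypes were not shown to differ, as the lowest adjusted p of a member for the interaction of genotype and O3 at 48 h was 0.92.

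The Ctsw signals of the Tnfr+/+ mice were 156, 126 and 48.5 in air, 70.9, 28.1 and 61.4 after 24 h of O3, 54.1, 22.3 and 31.0 after 48 h and 23.4, 77.3 and 30.0 after 72 h. For the Tnfr-/- mice they were 93.8, 15.6 and 48.4 in air, 86.5, 133 and 122 after 24 h of O3, 29.3, 17.3 and 25.5 after 48 h and 19.1, 8.88 and 23.4 after 72 h. These low signals spread widely between mice of a group, and each O3 group overlapped with air of its genotype. Ctsw was lower at 48 and 72 h by a log2 fold change of -1.28 (SE 0.37, interval -2.07 to -0.50, adjusted p = 0.030 with limma), and the call was lost without any 1 of 6 of the 18 arrays involved. At 24 h the log2 fold change of Ctsw was 1.44 in Tnfr-/- and -0.99 in Tnfr+/+ lungs. The interaction at 24 h was 2.43 (interval 0.61 to 4.24, unadjusted p = 0.012, adjusted p = 0.64), so this difference did not pass.

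In the other time comparisons no member was called. In Tnfr+/+ lungs 0.0828%, 1.17% and 3.10% of all probe sets passed at the 3 times, and in Tnfr-/- lungs 1.10% passed at 24 h and 3.96% at 72 h. In Tnfr-/- lungs at 48 h, 6 of 12 member probe sets lay lower with no overlap with air (Gzma, Nkg7, Klrd1, Klrk1, Ncr1 and Il2rb 1417546_at), against 15.9% of all probe sets. No interaction of genotype and O3 was called at any time (0.00974%, 0% and 0.00487% of all probe sets at 24, 48 and 72 h).

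Correlations between members over mice were mostly positive, and few passed a test. Within the 12 mice of a genotype, 38 of 45 pairs of member genes (84.4%) correlated positively in Tnfr+/+ and 44 of 45 (97.8%) in Tnfr-/- lungs. Over all pairs of the 11587 other genes, which are not independent of each other, 50.3% and 50.7% were positive. The median r of the member pairs was 0.35 in both genotypes, where that of other pairs was 0.0024 and 0.0066. With each group of 3 set to its own mean it was 0.30 in Tnfr+/+ and 0.47 in Tnfr-/- lungs. These medians describe the pairs and were not tested. Gzmb, Prf1 and Il2rb were in no pair that passed, and the lowest r was -0.38, for Gzmb with Klrd1 in Tnfr+/+ lungs. The 90 Pearson correlations were tested by permutation (100000 permutations, 2-sided), and 4 and 8 passed after Benjamini-Hochberg adjustment over the 90. Values were permuted over all 12 mice of a genotype, without keeping the exposure groups. The p-values therefore include differences between exposures that both genes share, and do not measure covariation between mice of a group. Correlations with each group set to its own mean were not tested. By Spearman's rho 2 passed, both in Tnfr-/- lungs. One was Nkg7 with Klrd1, with r = 0.89 (permutation p = 2.8e-04, adjusted p = 0.018), rho = 0.88 (permutation p = 2.6e-04, adjusted p = 0.022) and r = 0.86 without the 2 mice farthest from the median of Nkg7. The other was Gzma with Nkg7, with r = 0.84 (permutation p = 6.2e-04, adjusted p = 0.018), rho = 0.87 (permutation p = 4.8e-04, adjusted p = 0.022) and r = 0.80 without the 2 farthest. In Tnfr+/+ lungs Gzma with Nkg7 gave r = 0.83 (permutation p = 9.9e-04, adjusted p = 0.018) and rho = 0.76 (permutation p = 0.0062, adjusted p = 0.070). Their r was 0.85 and 0.71 in Tnfr-/- and Tnfr+/+ lungs when each group of 3 was set to its own mean.

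Tnfr-/- O3 72 h replicate 3 was high for most members. Its Gzma signal was 965 where the other 2 mice of the group had 217 and 281, and it was the highest of its group for 10 of the 12 member probe sets, all but Ncr1 and Prf1 1450335_at. Without it, Gzma was lower in Tnfr-/- lungs by -1.35 in place of -1.19. Over the 10 genes, the correlation of a member with the mean of the others over the 24 arrays was 0.90 for Gzma, 0.85 for Nkg7 and 0.83 for Ccl5, and was the lowest, 0.21, for Il2rb. These 24 arrays include the groups, so the values describe the pattern and are not a test.

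**Figure D4:**
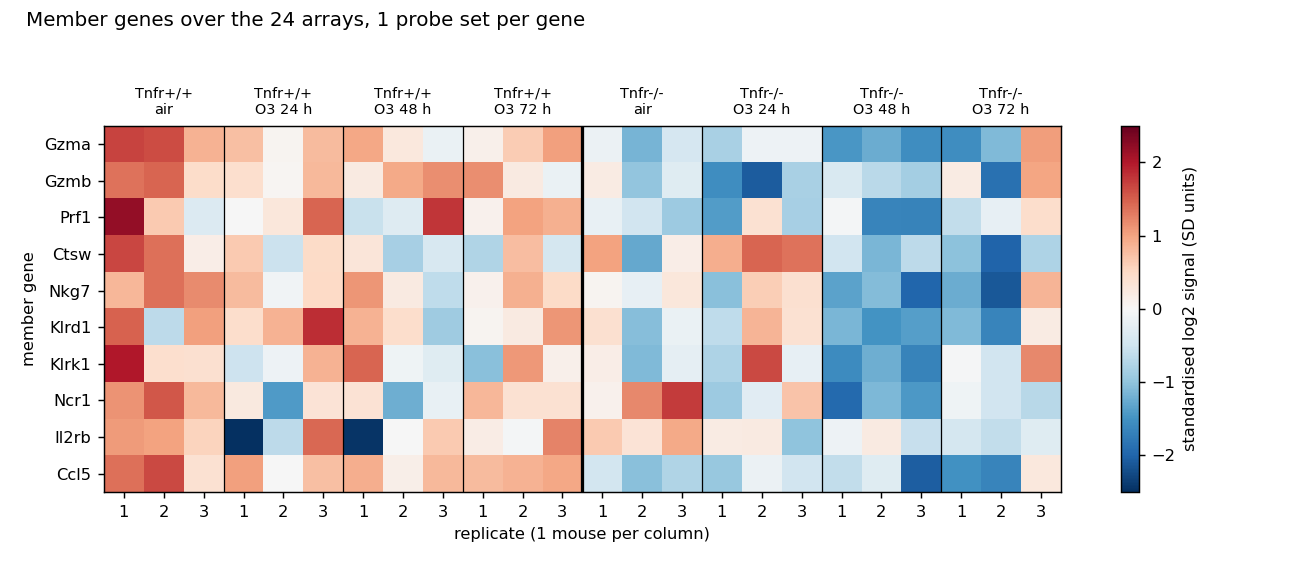
Log2 signals of the 10 member genes (rows, 1 probe set each) in the 24 mice (columns, by group and replicate), each row centred on its mean and scaled to SD units, red above and blue below. The Tnfr+/+ air columns are mostly red, the Tnfr-/- O3 48 h columns are blue in nearly all rows, and Tnfr-/- O3 72 h replicate 3 differs from its group.

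The genes most like the members were sought among 6594 other genes at or above the median signal, by the Pearson correlation of their log2 signal with the mean of the members over the 24 arrays. The 10 nearest were Tab2 (r = 0.80), Rsad2 (0.78), Yy1 (0.77), Themis2 (0.76), Egfr (0.76), Igtp (0.75), Ifi47 (0.75), Lgals2 (0.74), Irgm2 (0.74) and Mypop (0.74). Rsad2 is an antiviral gene, Tab2 encodes an adaptor of TNF and IL-1 receptor signaling, and Igtp, Ifi47 and Irgm2 encode GTPases of host defence. With each group of 3 set to its own mean, Igtp, Ifi47 and Irgm2 kept r of 0.74, 0.77 and 0.72, and the others had 0.10 to 0.62.

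Other genes of NK cells, listed apart from the members, gave 5 calls among 22 measured of 42 listed, all lower in Tnfr-/- lungs over the 4 exposures, where 2.74% of all genes were lower. They were Tbx21, the T-box factor T-bet of cytotoxic and type 1 cells (-0.46, adjusted p = 0.017), the lectin-like receptors Klra8 (-0.82, adjusted p = 0.039), Klrb1b (-0.53, adjusted p = 0.042) and Klrg1 (-0.41, adjusted p = 0.048), and Cma1, a chymase best known from mast cells (-0.31, adjusted p = 0.028). The Klra genes are close copies of each other, so which of them Klra8 reports is uncertain. Genes near Tnfrsf1a were not taken out of this list, and 9 genes within 10 Mb of it were called lower in Tnfr-/- lungs. For lectin-like receptor genes that lie there, as Klrd1 and Klrk1 do, loss of the TNF receptors and linked strain sequence cannot be told apart. The distances of Klra8, Klrb1b and Klrg1 from Tnfrsf1a are not given here, and their calls were not tested for this. For these calls, too, loss of the receptors and strain sequence cannot be told apart. Of the 22 genes, 17 had a negative log2 fold change and the median was -0.31. This list, too, was chosen with earlier results of these data known, so its counts are a description and not a test. Eomes, the other T-box factor of NK cells, was at -0.39 (adjusted p = 0.065), Gzmk at -0.35 (adjusted p = 0.16) and Ifng at 0.01 (adjusted p = 0.99). In the time comparisons with O3 none of the 22 was called.

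Genes of the machinery around the members gave few genotype calls. Of the genes for granule formation and release, 0 of 18 measured were called between the genotypes (median log2 fold change 0.00), although at 48 and 72 h of O3 Ctsh and Ctsc, cathepsins that process granzymes, and Gnptab rose and Vamp8 fell (3 and 1 of 18, where 6.21% of all genes were higher and 6.89% lower). Many of these genes are used by other lung cells too. Of the adaptors and ligands of NK receptors, Nectin2 was higher in Tnfr-/- lungs (0.29, adjusted p = 0.0061), 1 of 11 measured. Of the IL-2 and IL-15 receptor list, which also held the NK-activating cytokine Il18, 2 of 19 were higher (1.88% of all genes), Il18 (0.59, adjusted p = 0.0023) and Stat3 (0.26, adjusted p = 0.039). In that list O3 at 48 and 72 h was followed by 3 higher and 2 lower genes of 19. They were higher Socs3 (1.82, adjusted p = 9.2e-07), Il18 (0.39, adjusted p = 0.037) and Stat3 (0.29, adjusted p = 0.040) and lower Il15 (-0.61, adjusted p = 0.024) and Stat5b (-0.41, adjusted p = 9.5e-04). Of 12 Ccl5 receptors and type 1 chemokines, Cx3cl1 was lower in Tnfr-/- lungs (-0.34, adjusted p = 0.013), and Ccr1, a Ccl5 receptor of myeloid cells, was higher after O3 (1.07, adjusted p = 3.4e-06).

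Markers of other lymphocytes and of myeloid cells are given beside the members because several members are also made by cytotoxic T cells. Of 16 measured T cell markers of 23 listed, Cd3d, a chain of the T cell receptor complex, was lower in Tnfr-/- lungs (-1.45, adjusted p = 8.9e-04) and 12 had a negative sign, with a median of -0.12. The mean log2 signal of this list was 6.89 to 7.14 in Tnfr+/+ and 6.59 to 6.87 in Tnfr-/- air lungs, and 6.59 to 6.82 and 6.14 to 6.35 at 72 h. At 48 h it was 6.67 to 7.31, with Tnfr+/+ replicate 2 the highest, and 6.60 to 6.78. At 24 h most Tnfr-/- mice were the higher ones, with 6.47 to 6.86 in Tnfr+/+ and 6.77 to 7.22 in Tnfr-/- lungs. Of 11 measured B cell markers of 15 listed, Cd79a was higher in Tnfr-/- lungs (0.54, adjusted p = 0.040), with a median of 0.07 for the list. Beside these calls of Cd3d and Cd79a, 4.62% of all genes were called between the genotypes, in either direction. At 24 h of O3, 4 B cell markers were higher in Tnfr-/- lungs, where 0.584% of all probe sets were higher, and the members showed no call. No neutrophil, monocyte or lung structural marker was called between the genotypes. The neutrophil markers, 11 measured of 15 listed, had 9 of 11 log2 fold changes negative and a median of -0.19. Their mean log2 signal was 8.40 to 8.46 in Tnfr+/+ and 8.02 to 8.11 in Tnfr-/- air lungs and 8.60 to 8.73 and 7.95 to 8.35 at 72 h, with no overlap in either exposure. The ranges overlapped at 24 h (7.84 to 8.29 and 8.25 to 8.59) and 48 h (8.03 to 8.66 and 8.03 to 8.28). S100a8 (-0.63, adjusted p = 0.19) and S100a9 (-0.55, adjusted p = 0.25), the calprotectin genes, had the most negative values of the list. After O3 at 48 and 72 h, 8 of 12 measured alveolar macrophage markers were higher (6.21% of all genes), among them Ctsk, Cd68 and Chil3, with a median of 0.62. The part of these cell types in the members' values was not tested.

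**Figure D5:**
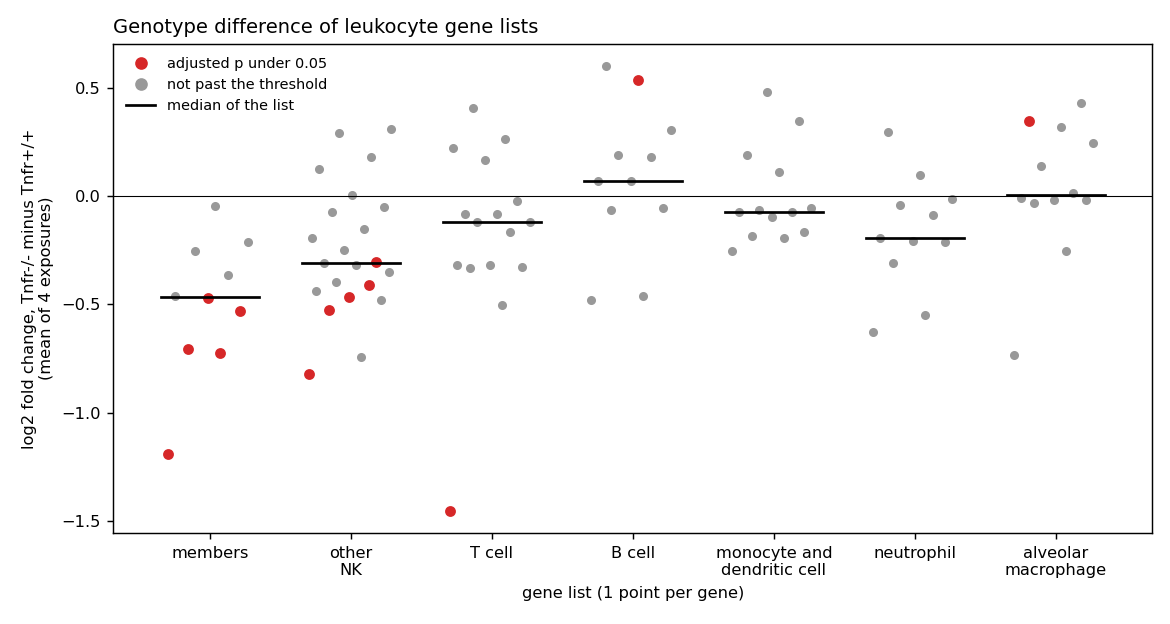
Log2 fold change of Tnfr-/- minus Tnfr+/+ over the mean of 4 exposures for the members and 6 other lists of leukocyte genes, 1 point per gene, with red for an adjusted p under 0.05 and a black bar for the median of the list. The members (1 probe set per gene) and the other NK cell genes lie mostly below 0, and the B cell markers and alveolar macrophage markers lie around 0.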

How the data were processed

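Lung RNA of 24 mice was hybridised to Affymetrix MOE430A arrays. The authors deposited 1 intensity per probe set on a linear scale, made per the submitters' processing notes with MAS5 in Affymetrix Expression Console, and the trimmed mean of 501 on every array shows a common scaling. For arrays the number of mice, 3 per group, limits the precision, and depth has no meaning. No scan dates were used here.

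The intensities were quantile normalized, set to at least 1 and taken to log2, and a probe set was kept if its signal reached an array's 20th percentile on 1 array or more. All 8 group means were fitted in limma 3.58.1 (lmFit and eBayes, R 4.3.3) with 16 residual and 2.38 prior degrees of freedom. The 15 comparisons were adjusted with Benjamini-Hochberg over 20537 probe sets, with calls at an adjusted p under 0.05. Of the probe sets, 20338 had 1 gene in the annotation, 691 several and 1551 none listed, and 64 were control probe sets. Of several probe sets for a listed gene, the one with the highest mean was used. Correlations used scipy 1.17.1 under Python 3.11.15. The script was tested on simulated data.

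All 10 members were named by rule. Of each gene list, up to 4 called genes per comparison in order of adjusted p were named, or the 2 with the lowest p where none was called, and further genes of the lists were named after their values were seen. The members and the 14 lists were chosen with earlier results of these data known. Alternatives were other normalizations, floors, filters, array sets and tests, and each array left out in turn.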

Additional observations from a re-analysis of the deposited data

How the results depend on the processing

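Of 202 counts of member calls recomputed under an alternative, 183 stayed within 1.5 times and 19 moved. Over the mean of 4 exposures the 5 genotype calls became 3 on the values as deposited (Nkg7 and Klrd1 were lost) and 2 without the air arrays, an alternative chosen after seeing the data. The late O3 calls, 2 in the main setting, became 1 in a fit of the arrays compared, and, in a split by genotype also chosen after seeing the data, 1 in Tnfr-/- and 0 in Tnfr+/+ arrays. The 1 call at 48 h in Tnfr-/- lungs became 0 in a fit of the arrays compared. The methods' t-test gave 0 there after Benjamini-Hochberg and 2 at its own unadjusted threshold, and 1 at 72 h. Between the genotypes, where the main counts were 0, the methods' t-test at its unadjusted threshold gave 4 in air, 3 at 24 h, 4 at 48 h and 2 at 72 h. limma at that threshold gave 3, 3, 7 and 4, and 1 for the interaction at 24 h. Array weights gave 1 in air. The cause of these moves was not tested, apart from the fewer arrays or the looser threshold where that is what the alternative changes.

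Leaving out 1 array at a time, the genotype count ran from 3 to 6, the late O3 count from 1 to 4, and the count at 48 h in Tnfr-/- lungs from 0 to 1, while the others stayed at 0. The genotype calls of Ccl5, Gzma and Gzmb held in 24 of 24 such fits. Nkg7 was lost (adjusted p up to 0.063) without Tnfr+/+ air replicate 2 or 3, O3 24 h replicate 1 or 3, O3 48 h replicate 1 or 2, or, in Tnfr-/-, air replicate 1 or 2, O3 24 h replicate 1, O3 48 h replicate 3, O3 72 h replicate 1 or 2. Klrd1 was lost (adjusted p up to 0.074) without any 1 of 16 arrays, from all groups. Late Ctsw was lost (adjusted p up to 0.11) without replicate 1 or 2 of Tnfr+/+ air, 1 or 3 of Tnfr-/- air, 2 of Tnfr-/- O3 48 h or 2 of Tnfr-/- O3 72 h, and late Ncr1 held in 18 of 18. The count of late calls was 4 without Tnfr-/- O3 72 h replicate 3.

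The groups share replicate numbers, but same-numbered arrays did not deviate together (r from -0.08 to 0.11, in 0 of 10 comparisons all over 0.1). With the replicate block the genotype count was 5, the late O3 count 2 and that at 48 h in Tnfr-/- lungs 1, and no call changed.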
